A study of Homo sapiens with 4 samples.

Results

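The immediate early AP-1 and EGR factors are 10 genes: the FOS family members FOS, FOSB, FOSL1 and FOSL2, the JUN family members JUN, JUNB and JUND, the zinc finger factors EGR1 and EGR3, and IER2. They were chosen by GENCODE symbol and matched to Ensembl identifiers, and all 10 were present among the 64252 genes of the count table. Transcript counts were obtained by RNA-seq from SK-N-BE(2), an established human neuroblastoma (NB) cell line, carrying either scrambled shRNA (sh-Scb, the control group) or an shRNA against SAPCD2 (sh-SAPCD2), with 2 libraries per group. All cells were stably transduced with lentivirus and are of 1 cell line, and the labels do not say which of the SAPCD2 shRNAs of the study the libraries carry. The comparison asked which of these transcripts differ when SAPCD2 is knocked down in these cells.

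FOS and JUN proteins are basic leucine zipper (bZIP) factors that pair with each other to form AP-1, which binds DNA at sites resembling TGANTCA. JUN proteins can pair among themselves, whereas FOS proteins need a JUN partner or another bZIP protein. FOS, FOSB, JUNB, EGR1, EGR3 and IER2 are classic immediate early genes, whose transcripts appear within minutes of growth factor, depolarization or stress signals through serum response factor (SRF) and CREB without new protein synthesis, and most of these transcripts are short-lived.

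The promoters of 8 of the 10 genes were found in RefSeq (GRCh38.p14), and FOSL1 and EGR3 were not among them. The 250 bases before the RefSeq start were searched on both strands for the CArG box bound by SRF, the CREB site TGACGTCA, the AP-1 site TGANTCA and the EGR site GCGNGGGCG, and on the coding strand for TATAAA. The sequences below were chosen because they hold the searched letters in the signal-responsive EGR1, FOS and JUNB genes and in JUND, with matches in capitals, 5′ to 3′ on the coding strand. They lie at chr5:138465229-138465478 (plus strand) for EGR1, chr14:75278578-75278827 (plus) for FOS, chr19:12791236-12791485 (plus) for JUNB and chr19:18281623-18281872 (minus) for JUND.
EGR1: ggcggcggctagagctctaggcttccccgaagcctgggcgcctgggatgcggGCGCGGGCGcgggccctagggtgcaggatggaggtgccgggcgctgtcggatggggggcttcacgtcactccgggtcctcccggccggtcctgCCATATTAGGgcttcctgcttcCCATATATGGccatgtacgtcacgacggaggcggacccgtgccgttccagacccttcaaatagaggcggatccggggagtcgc
FOS: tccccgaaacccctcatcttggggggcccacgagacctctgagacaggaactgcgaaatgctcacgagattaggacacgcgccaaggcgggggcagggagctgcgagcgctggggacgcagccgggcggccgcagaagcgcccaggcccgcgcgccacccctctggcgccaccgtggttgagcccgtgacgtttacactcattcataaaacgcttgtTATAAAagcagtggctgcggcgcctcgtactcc
JUNB: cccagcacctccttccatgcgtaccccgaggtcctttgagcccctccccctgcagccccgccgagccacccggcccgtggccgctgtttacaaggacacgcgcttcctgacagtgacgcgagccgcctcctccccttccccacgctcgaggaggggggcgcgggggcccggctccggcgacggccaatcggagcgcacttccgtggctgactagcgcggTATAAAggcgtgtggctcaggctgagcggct
JUND: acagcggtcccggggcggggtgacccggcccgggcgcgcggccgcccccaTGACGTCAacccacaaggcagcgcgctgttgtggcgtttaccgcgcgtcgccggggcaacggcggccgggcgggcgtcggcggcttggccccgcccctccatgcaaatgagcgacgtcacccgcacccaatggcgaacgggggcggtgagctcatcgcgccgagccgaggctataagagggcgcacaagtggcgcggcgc
EGR1 held 2 CArG boxes, from 105 to 96 and from 83 to 74 bases before the start, and an EGR site from 198 to 190 bases before it. JUND held the only exact match to TGACGTCA, from 200 to 193 bases before the start. TATAAA was found in FOS (33 to 28 bases before the start), JUNB (31 to 26) and FOSB (30 to 25), and the AP-1 site was found in none of the 8. Among 35116 promoters of the same length, 1.16% held a CArG box, 1.65% the CREB site, 6.57% the AP-1 site, 8.41% the EGR site and 6.80% TATAAA. A match describes the letters in this window and does not show binding. Only the stated letters were searched, so a site with variant letters would be missed, and no match does not mean no site.

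SAPCD2 itself had 83.6 and 82.2 CPM (counts scaled to library size by TMM) in the sh-Scb libraries and 35.4 and 52.5 CPM in the sh-SAPCD2 libraries. Its log2 fold change was −0.91 (standard error, SE, 0.193; adjusted p = 0.0206, edgeR) and −1.23 without the second sh-SAPCD2 library, and it was lower in both knockdown libraries. Libraries contained 25347900 to 31850997 counts, and 3 counts, taken as the smallest detectable amount, equaled 0.0955 to 0.119 CPM, which covers counting error only. The second sh-SAPCD2 library stood apart. The Spearman correlation of its log2 CPM, centered on the 4-library mean, with transcript GC content was 0.42 across 17467 genes, against −0.19 to −0.16 in the other 3 libraries (genes are not independent replicates). Results of the AP-1, EGR and IER2 genes that were tested are given with and without it. Such a fit leaves a lone library in its group, which was assumed to vary like the other group. Its adjusted p can thus be lower than with all 4 libraries and is not firmer evidence.

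Of the 10 genes, 6 were higher in SAPCD2-knockdown cells at an adjusted p under 0.05 (FOSL1, FOSL2, JUN, JUNB, JUND and IER2), none was lower, 2 were tested without passing (FOS and EGR1) and 2 had too few counts to be tested (FOSB and EGR3). With edgeR none of the 8 tested was lower at an unadjusted p under 0.05 either, and DESeq2 called 6 higher and 0 lower. Among all 18779 tested genes, 12.4% were called higher and 12.5% lower. The log2 fold changes of the 8 tested genes had a median of 0.90, whereas the median of all tested genes was 0.02. FOS passed the filter on low counts through the sh-SAPCD2 group, since only 1 sh-Scb library was over its limit of 0.365 CPM. Both sh-SAPCD2 libraries lay above both sh-Scb libraries for all 8 tested members, which was so for 33.5% of all tested genes. It was also so for the untested FOSB, with 4 and 4 against 6 and 27 counts. With the study's additional threshold of a log2 fold change over 1, FOSL1 and JUND were called, and 4.69% of tested genes were called higher. Without a filter on low counts, SAPCD2 (adjusted p = 0.0749) and JUN, JUNB, JUND and IER2 (adjusted p = 0.0620 to 0.112) missed the threshold. In these bulk libraries, more RNA per cell and a larger share of cells with the transcript cannot be told apart. The labels do not state that the libraries came from separate cultures, so p-values measure the spread between these libraries.

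**Figure D1:**
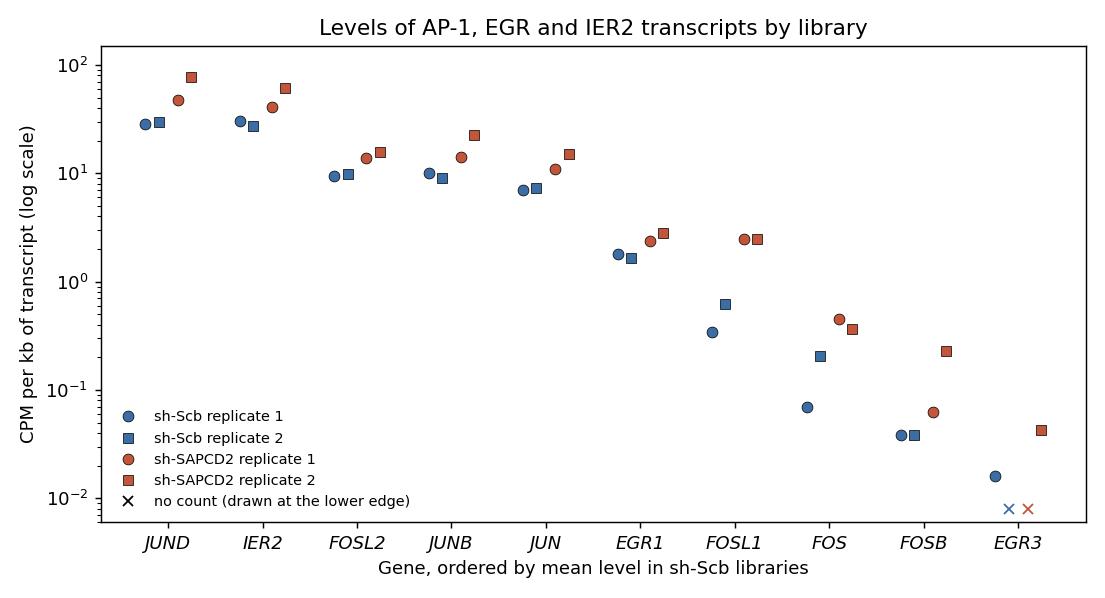
Level of each gene in each library as CPM per kb of its canonical transcript, on a log axis, with genes ordered by their mean in the sh-Scb libraries. Blue symbols are sh-Scb and red symbols sh-SAPCD2 libraries (circles, replicate 1, and squares, replicate 2), and the red symbols lie above the blue ones for every gene but EGR3.

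FOSL1 (FRA-1) encodes a FOS protein without the strong transactivation domain of FOS, often found raised in invasive carcinoma cells. The gene (ENSG00000175592) lies at chr11:65892049-65900573 on the minus strand (hg38). It had 16 and 29 counts (0.579 and 1.05 CPM) in the sh-Scb libraries and 107 and 131 counts (4.23 and 4.17 CPM) in the sh-SAPCD2 libraries. Both knockdown libraries were far above both controls and close to each other, while the controls differed more. Its log2 fold change was 2.36 (a 5.12-fold difference, SE 0.342, adjusted p = 0.00717), the largest of the 8 tested genes. It was called higher in all 12 refits with another scaling, tool, filter, block, correction or set of libraries, with log2 fold changes from 1.99 to 2.85, and 2.37 without the second sh-SAPCD2 library.

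FOSL2 (FRA-2), which encodes the other FOS protein of this type, was the most abundant FOS family transcript. The gene (ENSG00000075426) lies at chr2:28392448-28417317 on the plus strand and overlaps FOSL2-AS1, which had 0, 0, 4 and 4 counts. FOSL2 had 63.9 and 65.6 CPM in the sh-Scb libraries and 93.0 and 105 CPM in the sh-SAPCD2 libraries. The groups did not overlap and the controls nearly coincided. The log2 fold change was 0.61 (SE 0.112, adjusted p = 0.0138) and 0.53 without the second sh-SAPCD2 library. It missed the threshold without the first sh-Scb library (adjusted p = 0.190) or the second (adjusted p = 0.154), with adjusted p from 3.90e-04 to 0.190 over 12 refits.

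FOS (ENSG00000170345), the prototype of the family, lies at chr14:75278826-75282230 on the plus strand with 4 exons. It had 4 and 12 counts (0.145 and 0.436 CPM) in the sh-Scb libraries and 24 and 24 counts (0.948 and 0.764 CPM) in the sh-SAPCD2 libraries. The groups did not overlap, but the controls differed 3-fold at a few counts each. The log2 fold change of 1.54 had a standard error of 0.594 and did not pass (adjusted p = 0.109). It was 0.96 without the first sh-Scb library (adjusted p = 0.533), 2.52 without the second (adjusted p = 0.0912) and 1.69 without the second sh-SAPCD2 library (adjusted p = 0.158). FOSB (ENSG00000125740, chr19:45467995-45475179, plus strand) had 4 and 4 counts in the sh-Scb libraries and 6 and 27 in the sh-SAPCD2 libraries. It did not pass the filter, and its level in the second sh-SAPCD2 library stood above the other 3. In fits with another library left out, FOSB passed the filter only through this high library, so no fold is given for them. Without a filter on low counts it did not pass (adjusted p = 0.257, edgeR). FOSB overlaps ERCC1 on the other strand, which had 623 to 1100 counts. How the authors' counting used strand is not given in the sources used here, so reads of such pairs cannot be told apart.

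The JUN family lies at 3 places: JUN (ENSG00000177606) at chr1:58776845-58784048 on the minus strand, JUNB (ENSG00000171223) at chr19:12791486-12793315 on the plus strand and JUND (ENSG00000130522) at chr19:18279694-18281622 on the minus strand. Each is a gene of 1 exon in its canonical transcript. JUN is the member with the strongest transactivation, JUNB often limits it, and JUND is present in resting cells of most tissues.

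JUN had 23.0 and 23.6 CPM in the sh-Scb libraries and 36.0 and 48.6 CPM in the sh-SAPCD2 libraries, for a log2 fold change of 0.86 (SE 0.174, adjusted p = 0.0181). The groups did not overlap, and the knockdown libraries were farther apart than the controls. The log2 fold change was 0.63 without the second sh-SAPCD2 library. JUN missed the threshold without the first sh-Scb library (adjusted p = 0.0615), and over 12 refits its adjusted p ranged from 1.40e-04 to 0.0620.

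JUNB had 18.5 and 16.5 CPM in the sh-Scb libraries and 25.7 and 41.1 CPM in the sh-SAPCD2 libraries. The groups did not overlap, and most of the difference came from the second knockdown library. The log2 fold change was 0.94 (SE 0.237, adjusted p = 0.0350), and it was 0.56 without the second sh-SAPCD2 library. After each library was corrected for GC content and length it was 0.56 (adjusted p = 0.00723). Without the second sh-Scb library JUNB missed the threshold (adjusted p = 0.0633), and its adjusted p over 12 refits ranged from 5.89e-04 to 0.112. JUNB overlaps HOOK2 on the other strand, which had 298 to 503 counts and a log2 fold change of 0.03 (adjusted p = 0.933).

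JUND had 55.6 and 56.8 CPM in the sh-Scb libraries and 90.7 and 148 CPM in the sh-SAPCD2 libraries. The controls nearly coincided, and both knockdown libraries lay above them by unequal amounts. The log2 fold change was 1.09 (SE 0.227, adjusted p = 0.0201). It was 0.69 without the second sh-SAPCD2 library, 1.39 without the first and 0.49 with the GC content and length correction (adjusted p = 8.57e-04). Over 12 refits the adjusted p ranged from 2.00e-06 to 0.0769.

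EGR1 (ENSG00000120738), a zinc finger factor that also switches on its own corepressor NAB2, lies at chr5:138465479-138469303 on the plus strand. It had 155 and 143 counts (5.61 and 5.20 CPM) in the sh-Scb libraries and 190 and 275 counts (7.51 and 8.76 CPM) in the sh-SAPCD2 libraries. The groups did not overlap, yet the log2 fold change of 0.59 (SE 0.190) did not pass (adjusted p = 0.0695). EGR1 passed the threshold when the first sh-SAPCD2 library was left out (log2 fold change 0.69, adjusted p = 0.0282), the only one of 12 refits in which it did, with adjusted p up to 0.393 in the others. Without the second it was 0.48 (adjusted p = 0.0967). EGR3 (ENSG00000179388, chr8:22687659-22693480, minus strand) had 2, 0, 0 and 6 counts, and its groups overlapped.

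IER2 (ENSG00000160888), which encodes a small nuclear protein induced together with FOS, lies at chr19:13150411-13154911 on the plus strand. It had 64.2 and 57.1 CPM in the sh-Scb libraries and 86.8 and 130 CPM in the sh-SAPCD2 libraries. Again the groups did not overlap and the second knockdown library was the highest. The log2 fold change was 0.84 (SE 0.201, adjusted p = 0.0297), and it was 0.52 without that library. With the GC content and length correction it was 0.52 (adjusted p = 0.00267). Without the second sh-Scb library it missed the threshold (adjusted p = 0.0720), and over 12 refits its adjusted p ranged from 1.38e-04 to 0.101.

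**Figure D2:**
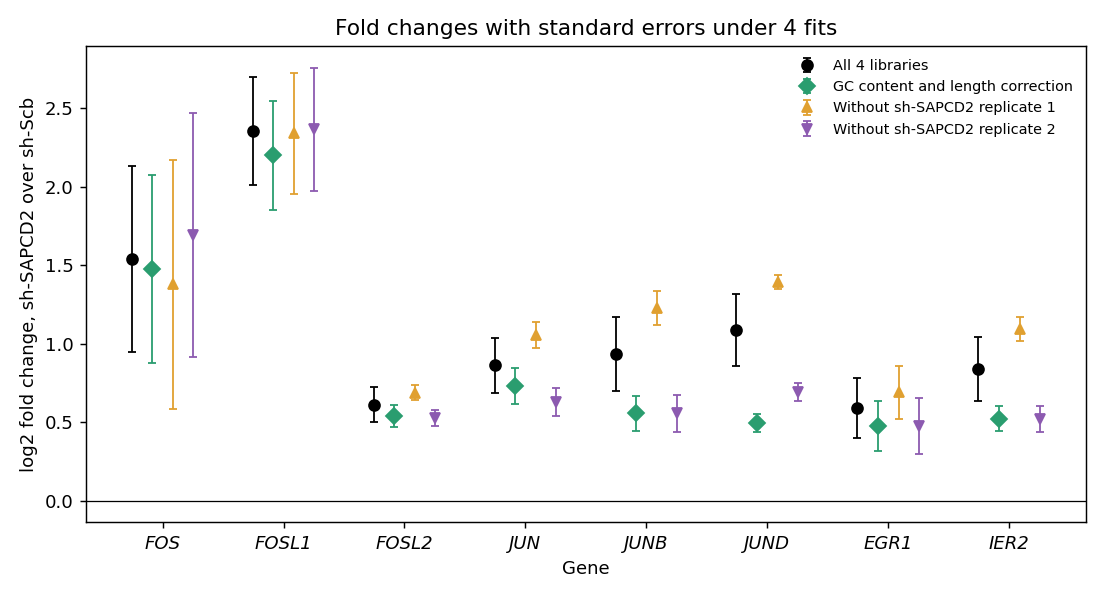
Log2 fold change of sh-SAPCD2 over sh-Scb for the 8 tested genes with standard errors, from all 4 libraries, after GC content and length correction, and without each sh-SAPCD2 library. The estimates of FOSL1 lie from 2.2 to 2.37, whereas those of JUND range from 0.49 to 1.39.

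JUNB, JUND and IER2 have GC-rich transcripts, with 64.9%, 69.9% and 63.0% GC, while the 8 tested genes span 52.8% to 69.9% and the median of all tested genes is 48.5%. In the second sh-SAPCD2 library, genes with 65% to 70% GC lay at a median of 0.64 above the mean of the controls on the log2 scale, and those with 60% to 65% GC at 0.47. In that library JUND lay at 1.40, JUNB at 1.23 and IER2 at 1.10, each above the median of its GC range. In the first sh-SAPCD2 library the same medians were 0.08 and 0.05, and JUND lay at 0.69, JUNB at 0.56 and IER2 at 0.52. JUND is at the upper edge of its GC range. Genes over 70% GC (68 genes) lay at a median of 0.28 in the first and 0.93 in the second sh-SAPCD2 library. FOSL1, with 58.7% GC, lay at 2.33 in the first and 2.31 in the second library. With the GC content and length correction the same number of genes, 6, was called higher, where 19.0% of all tested genes were called higher. Why the second library differed was not tested.

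**Figure D3:**
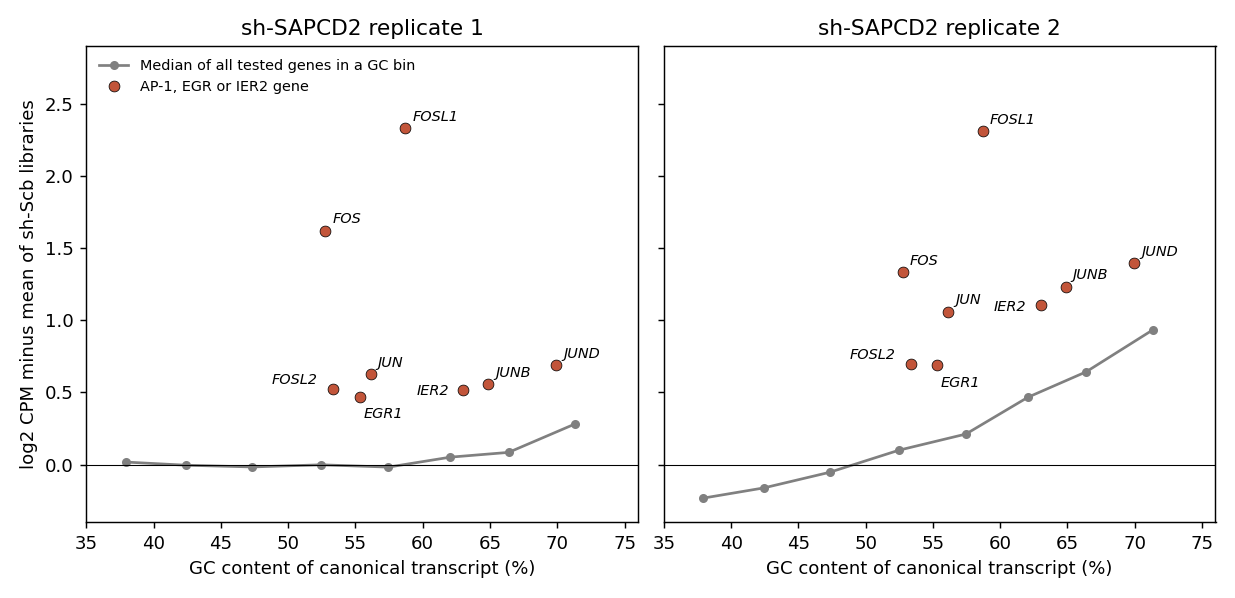
Log2 CPM of each sh-SAPCD2 library minus the mean of the sh-Scb libraries against transcript GC content, with the 8 tested genes as red points and the median of all tested genes in each GC range as a gray line. The line stays near 0 up to 70% GC in replicate 1 and rises with GC content in replicate 2, and the red points lie above it in both.

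Levels can be compared between genes as CPM per kb of canonical transcript. In the sh-Scb libraries JUND (29.1 ± 0.467 CPM per kb, SD, n = 2) and IER2 (28.7 ± 2.38) were highest and overlapped. FOSL2 (9.64 ± 0.176) and JUNB (9.56 ± 0.772) followed and overlapped with each other, and JUN was at 7.15 ± 0.130. EGR1 was at 1.72 ± 0.0933, FOSL1 at 0.480 ± 0.197, FOS at 0.138 ± 0.0979, FOSB at 0.0384 and EGR3 at 0.00802 CPM per kb. These cells therefore carried mostly JUND among JUN transcripts and FOSL2 among FOS transcripts, with FOS and FOSB near the detection limit.
In the sh-SAPCD2 libraries JUND (61.9 ± 21.1) and IER2 (51.4 ± 14.5 CPM per kb) were again highest and overlapped. JUNB (18.3 ± 5.96), FOSL2 (14.7 ± 1.23) and JUN (12.99 ± 2.74) overlapped one another, and FOSL1 (2.47 ± 0.0231) overlapped EGR1 (2.59 ± 0.282), which it had been below in the controls.

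Within the FOS family, FOSL1 made up 3.41% and 5.82% of the summed CPM per kb in the sh-Scb libraries and 14.7% and 13.2% in the sh-SAPCD2 libraries. The share of FOSL2 was 95.5% and 91.9% in the controls and 82.2% and 83.7% in knockdown cells. FOSL1 thus took a larger share in both knockdown libraries, with FOSL2 still the main transcript in all 4. Within the JUN family, JUND made up 62.7% and 64.4% in the sh-Scb and 65.2% and 67.2% in the sh-SAPCD2 libraries, JUNB 22.0% and 19.7% against 19.5% and 19.7%, and JUN 15.3% and 15.8% against 15.3% and 13.1%. The composition of the JUN family differed by a few percentage points at most between libraries.
Summed levels of the FOS family were 9.97 and 10.6 CPM per kb in the sh-Scb and 16.9 and 18.6 in the sh-SAPCD2 libraries, and those of the JUN family were 46.0 and 45.7 against 72.1 and 114. Both families were higher in each knockdown library. The ratio of JUN to FOS family levels was 4.61, 4.30 and 4.28 in the other 3 libraries and 6.13 in the second sh-SAPCD2 library, the one with the GC shift.

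The wider set of immediate early genes was described with a list of 50 other genes, of which 49 were in the table and 40 were tested. Of these 40, 18 (45%) were called higher and 1 (2.5%) lower, against 12.4% and 12.5% of all tested genes. A log2 fold change above 0 was seen for 33, and the median of the 40 was 0.74. GADD45B, CCN1 and NR4A3, all above 0, passed the filter on low counts through the sh-SAPCD2 group. DUSP2, below 0, passed it through the sh-Scb group, and none of these was called. The count of 18 ranged from 12 at an adjusted p under 0.01 and 13 without a filter on low counts to 23 after the GC content and length correction. The median log2 fold change of the 40 was 0.63 without the second sh-SAPCD2 library. MAFF, a small MAF bZIP protein, had 4.34 and 3.85 CPM in the sh-Scb and 16.0 and 19.0 CPM in the sh-SAPCD2 libraries (log2 fold change 2.096, adjusted p = 0.00263). PLK2, a Polo-like kinase, had 7.02 and 5.60 against 24.02 and 20.6 CPM (log2 fold change 1.82, adjusted p = 0.00330). Both had a gap between groups several times that within them. BTG2, an antiproliferative gene, rose from 6.44 and 6.40 to 19.8 and 22.3 CPM (log2 fold change 1.71, adjusted p = 0.00297), and SIK1, a salt-inducible kinase, from 3.19 and 2.47 to 9.36 and 10.2 CPM (log2 fold change 1.79, adjusted p = 0.00470). KLF6, a Krüppel-like factor, had 49.1 and 50.04 against 105 and 95.7 CPM (log2 fold change 1.02, adjusted p = 0.00377). The gene called lower was NFKBIA, the inhibitor of NF-κB, with 34.8 and 37.5 against 17.5 and 21.2 CPM (log2 fold change −0.90, adjusted p = 0.0108; named after its value was seen). EGR2, EGR4, KLF4 and MYC were at or below 0.145 CPM in every library.

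**Figure D4:**
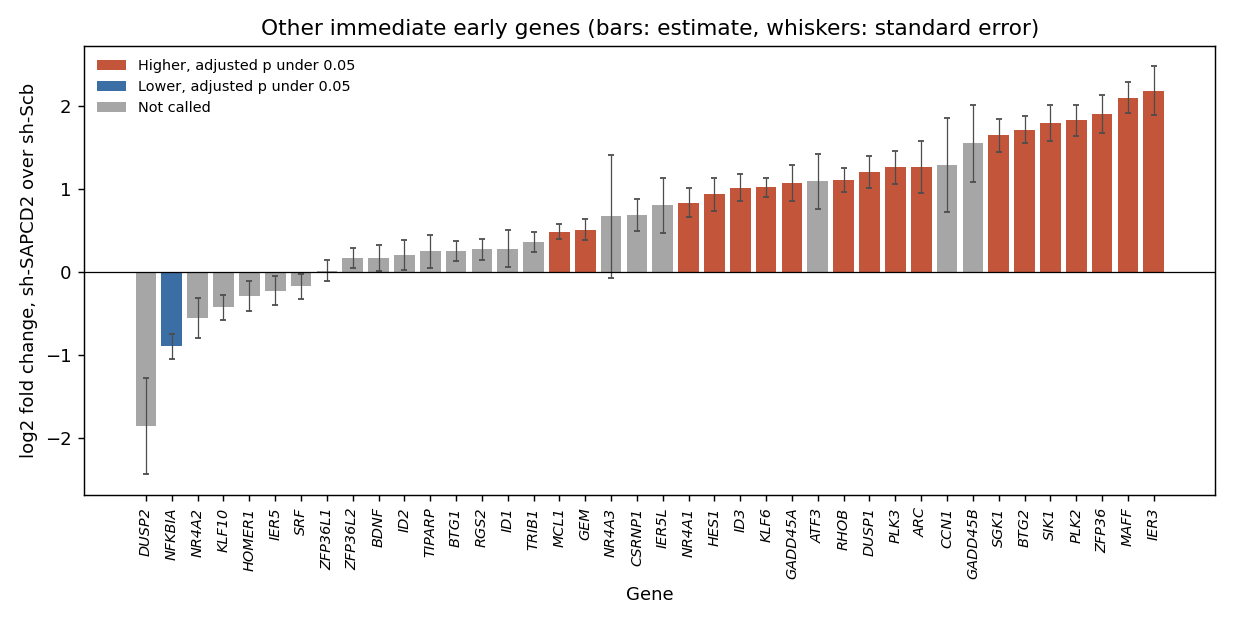
Log2 fold change of sh-SAPCD2 over sh-Scb for the 40 tested genes of the list of other immediate early genes, with standard errors as whiskers. Red bars are the 18 genes called higher at an adjusted p under 0.05, the blue bar is NFKBIA, called lower, and gray bars did not pass.

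Among 19 bZIP genes whose proteins can pair with FOS or JUN proteins, 14 were tested, 3 (21.4%) were called higher and none lower. The shares of all tested genes were 12.4% and 12.5%. None was lower with edgeR at an unadjusted p under 0.05, and DESeq2 called 0 lower. Of the 14, 8 had a log2 fold change above 0. The median was 0.28, and 0.24 without the second sh-SAPCD2 library. Among the 3 called higher were MAFF (also in the list above) and MAFG (49.1 and 50.2 against 81.1 and 101 CPM, log2 fold change 0.87, adjusted p = 0.00899). The ATF genes did not pass in either direction. Of the EGR relatives and corepressors, 3 of 6 were tested. NAB2 was called higher, at 18.3 and 22.4 against 31.6 and 42.1 CPM (log2 fold change 0.86, adjusted p = 0.0240), and NAB1 lower, at 85.9 and 88.9 against 63.9 and 58.8 CPM (log2 fold change −0.51, adjusted p = 0.0211). The corepressors of EGR proteins thus moved in opposite directions.

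The SRF, TCF, MRTF, CREB and MEF2 genes include factors that act upstream of immediate early genes. Of 19 tested, 3 were called higher and 3 lower (15.8% each), with a median log2 fold change of 0.11. These shares are near the 12.4% and 12.5% of all tested genes, and the median was 0.17 without the second sh-SAPCD2 library. The TCF gene ELK1 had 43.2 and 45.1 against 19.8 and 22.4 CPM (log2 fold change −1.07, adjusted p = 0.00506), whereas its relatives ELK3 and ELK4 were called higher (log2 fold changes 0.65 and 0.66). MRTFB, an actin-regulated partner of SRF, was lower (−1.11, adjusted p = 0.00570), and CREB3 was higher (0.86). CREB1, named after its value was seen, was called lower, at 101 and 102 against 76.2 and 56.3 CPM (log2 fold change −0.62, adjusted p = 0.0363). SRF itself did not pass (−0.17, adjusted p = 0.437).
Of 32 tested kinases of the ERK, JNK, p38 and RSK pathways, 8 were called higher and 2 lower. These are 25% and 6.25%, against 12.4% and 12.5% of all tested genes. The median log2 fold change of these kinases was 0.17, and 0.12 without the second sh-SAPCD2 library. MKNK2, a kinase activated by ERK and p38, had 63.8 and 62.5 against 149 and 201 CPM (log2 fold change 1.47, adjusted p = 0.00371), and MAP2K3, a p38 kinase kinase, and MAP3K12, which acts on JNK, were also higher (1.17 and 0.88). The other p38 kinase kinase, MAP2K6, was lower (−1.15, adjusted p = 0.00762), as was RPS6KA3, which encodes RSK2 (−0.95, adjusted p = 0.00570). Transcript levels do not report on kinase activity.

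Of 14 genes for turnover or activation of AP-1 proteins, all tested, 2 were called higher and 2 lower (14.3% each, near the share of all tested genes). Their median log2 fold change was −0.04, and −0.09 without the second sh-SAPCD2 library. GSK3B, a kinase that marks JUN for degradation, fell from 137 and 136 to 74.7 and 57.5 CPM (log2 fold change −1.05, adjusted p = 0.00646), and DET1 of the COP1 ligase fell by 0.72 on the log2 scale. FBXW7, the ligase subunit that recognizes phosphorylated JUN, was higher (0.79, adjusted p = 0.00997), and CUL4A was higher (0.52).
Among 38 genes often described as AP-1 targets, 26 were tested, 5 were called higher and 2 lower, with a median of 0.36. The shares were 19.2% and 7.69%, against 12.4% and 12.5% of all tested genes. Of the 5, MMP9 (named after its values were seen) had 6 and 10 against 28 and 43 counts. It passed the filter on low counts only through the sh-SAPCD2 group, so no fold is given. Without the second sh-SAPCD2 library MMP9 missed the threshold. MMP14, a membrane metalloproteinase, rose from 105 and 102 to 316 and 387 CPM (log2 fold change 1.76, adjusted p = 0.00201). CCND1 (cyclin D1) rose from 440 and 429 to 734 and 784 CPM (log2 fold change 0.80, adjusted p = 0.00430), and MMP2 was higher by 0.61. HMGA1, a chromatin protein, was lower (386 and 379 against 153 and 184 CPM, log2 fold change −1.18, adjusted p = 0.00330), and so was DNMT1 (−0.57). Many of the other targets, among them interleukin and growth factor genes, were too low to test, and 8 of the 38 had no count in any library.

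Since handling or heat can induce immediate early genes, 15 heat shock genes were measured beside them. All 15 were tested, 4 (26.7%) were called higher and none lower, with a median of 0.21. Of all tested genes, 12.4% were called higher. None was lower with edgeR at an unadjusted p under 0.05, and DESeq2 called 0 lower. Of the 15, 10 had a log2 fold change above 0, and the median without the second sh-SAPCD2 library was 0.07. BAG3 rose most clearly (35.9 and 37.2 against 78.7 and 87.0 CPM, log2 fold change 1.18, adjusted p = 0.00321). HSPH1, HSF1 and HSPA1B were higher by 0.52, 0.62 (0.38 without the second sh-SAPCD2 library) and 0.69, and reads of HSPA1B may be shared with its near-identical copy HSPA1A. The summed level of the list was 7723 and 7742 CPM in the sh-Scb and 7598 and 7119 CPM in the sh-SAPCD2 libraries. Most of that sum was HSP90AB1 (2795 and 2722 against 2427 and 2468 CPM) and HSPA8 (2000 and 2063 against 2029 and 1782 CPM). The sum therefore says little about genes at lower levels such as BAG3. Their part in the result was not tested.

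The labeled cell type was checked against markers. Adrenergic neuroblastoma markers were all tested (16 of 16) and present, with MYCN at 3235 and 3178 against 5904 and 7091 CPM (log2 fold change 1.02, adjusted p = 0.00378). Of these markers 2 were called higher and 6 lower (12.5% and 37.5%, against 12.4% and 12.5% of all tested genes), among them DBH (−1.35) and CHGB (−0.83). Mesenchymal neuroblastoma markers, a state in which AP-1 factors are often reported, were tested for 11 of 18 genes. Of these 11, 1 (9.09%) was higher (SIX4, 0.83) and 3 (27.3%) were lower, namely NOTCH2 (−1.26), VIM (−1.15) and FN1 (−0.59). The summed level of the 18 mesenchymal markers was 1854 and 1835 CPM in the sh-Scb and 1089 and 1116 CPM in the sh-SAPCD2 libraries, and PRRX1 had no count. Most of that difference was VIM, at 1197 and 1179 against 518 and 555 CPM, and 7 of the 11 tested markers did not pass. Of 20 markers of other cell types, 11 were tested and 3 (27.3%) were called higher, each below 3.40 CPM in every library. Among them was KRT19 (log2 fold change 1.40, adjusted p = 0.0406), with a log2 fold change of 1.42 without the second sh-SAPCD2 library, where it missed the threshold. Another was CD68, named after its values were seen, which had 1 and 2 counts in the sh-Scb libraries, under the floor of 3 counts, and 11 and 12 in the sh-SAPCD2 libraries. It passed the filter only through the sh-SAPCD2 group, so no fold is given. The summed level of those 20 markers was 195 to 248 CPM in all 4 libraries without separation of the groups, and CD3E, HBB and KRT5 had no count. The part of other cells in the result was not tested.

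Over all tested genes with a mean of at least 1 CPM (15675 genes), the genes whose log2 CPM pattern over the 4 libraries was nearest to JUN by Euclidean distance were SEMA4C (0.0217), RPS6KL1 (0.0259) and RELT (0.0315). Nearest to EGR1 were ATCAY (0.0219), RPIA (0.0276) and MNT (0.0345). Nearest to FOS were DCAF4L1 (0.0954), ENSG00000265179 (0.174) and COLGALT2 (0.207). The distances rest on 4 libraries and the patterns share the contrast between the groups.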

How the data were processed

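Total RNA of SK-N-BE(2) cells was sequenced from libraries of the TruSeq RNA kit, and reads were aligned to hg38 with HISAT2 2.2.0 per the labels. The authors estimated abundances with StringTie and deposited unscaled counts, in whole numbers, for each gene. The annotation release and the use of strand are not given in the sources used here. Counts (25347900 to 31850997 per library) were scaled by TMM and tested two-sided in R 4.3.3 with edgeR 4.0.16 (glmQLFit, glmQLFTest) after filterByExpr (minimum count 10, minimum total 15), and p-values were adjusted by Benjamini-Hochberg over the 18779 genes kept. A gene was called at an adjusted p under 0.05. The test was also run on counts simulated without the GC shift of the second sh-SAPCD2 library. That run cannot show how the test performs with such a shift. Symbols, positions, lengths and GC content came from GENCODE 44, with no match for 1312 tested genes. Log2 CPM used a prior count of 2. The GC content and length correction was a loess fit per library (span 0.3) used as an offset.

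The members and lists were chosen with earlier results of these data known. All 10 members were named, and from each list up to 5 called genes with the smallest p and a mean of at least 1 CPM, beside the 3 nearest genes for FOS, JUN and EGR1. Some genes that this rule names are not reported here. Exceptions are marked, except SRF, named as the factor of the CArG box, and genes named for having no or few counts. Alternatives were DESeq2 1.42.0, its size factors, library totals, other filters and thresholds, the replicate block, the correction, and each library left out. The lists without the second sh-SAPCD2 library were added after seeing the data.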

Additional observations from a re-analysis of the deposited data

How the results depend on the processing

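With all 4 libraries, 6 members were called higher, and none was called lower under any alternative run. This count was 2 without a filter on low counts, 1 at an adjusted p under 0.01, 2 when the log2 fold change also had to pass 1, and 3 to 8 with a library left out: 4 without the first and 3 without the second sh-Scb library, 8 (FOSB included) without the first and 6 without the second sh-SAPCD2 library. The members' median log2 fold change of 0.90 was 0.55 with the GC content and length correction, 0.55 with that correction and the replicate block, and 0.59 to 1.16 with a library left out. Of all genes, 2326 were called higher and 2339 lower. These counts were 1081 and 1180 without a filter, 3563 and 3905 with the correction, 699 and 758 at an adjusted p under 0.01, 880 and 968 with a log2 fold change over 1, and 1176 to 4396 and 1146 to 4014 with a library left out, where the lower ends came without an sh-Scb library (the second, then the first) and the upper ends without the first sh-SAPCD2 library. With the correction and the replicate block, 3647 were lower. Of the other immediate early genes, 1 was called lower, and this was 3 with the correction, with or without the block, 0 at an adjusted p under 0.01, 0 with a log2 fold change over 1, and 1 to 3 with a library left out. Where a library was left out, the lone library of its group was assumed to vary like the other group. The causes of these differences were not tested, beyond the fewer samples or stricter thresholds of those settings.

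Libraries with the same replicate number deviated from their groups with a correlation of −0.02. With 2 libraries per group and the GC shift of the second sh-SAPCD2 library, this cannot decide whether the libraries were paired. With the replicate block, 6 members were called higher, their median was 0.87, and 2860 genes were called higher and 2701 lower. No single member reversed its direction. FOS, FOSB and EGR3 had 0 to 27 counts per library, which is few for estimating a difference.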
